A study of Mus musculus with 6 samples.

Results

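The genes that sense and repair DNA damage were compared between mouse iPSC constructs under intermittent compressive force (ICF) and unloaded constructs. The 45 genes were listed by symbol, without use of their levels, and all 45 were found among the 50686 gene identifiers of the count files and among the 16729 genes with enough counts to be tested. Xpc, Ddb2, Polk and Rrm2b were grouped in advance as p53-induced repair genes, and these 4 were set against the other 41. The name is that of the group, and whether p53 induces each of the 4 in these mouse cells was not tested. The cells were induced pluripotent stem cells (iPSCs) reprogrammed from mouse gingival fibroblasts and grown on feeder cells, which were removed before embryoid bodies were formed. In both groups the embryoid bodies had been exposed to retinoic acid, were attached to gelatin-coated plates and were kept in serum-free medium. The ICF group was loaded for 24 h with 1.5 g per square centimetre at 0.23 Hz, and the control group carried no load. RNA sequencing covered 3 samples per group, numbered by donor in the labels, while the paper describes independent experiments without naming donors. The number is called the replicate here, and p-values measure only the spread between these samples.

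Cells recognise each form of DNA damage with its own set of proteins. Nucleotide excision repair cuts out bulky lesions, base excision repair removes damaged bases, mismatch repair corrects copying errors, and breaks are joined end to end or by homologous recombination with a sister copy. The kinases Atm and Atr relay the damage to checkpoints, and p53 then raises the transcription of target genes, some of which act in repair. Proliferating pluripotent cells are known for high levels of many of these proteins.

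In edgeR without a replicate block, 3 of the 45 genes rose and 1 fell under ICF, and with the replicate number as a block 11 rose and 4 fell. Without the block, Polk, Ercc5 and Exo1 were upregulated and Atr was downregulated at an adjusted p under 0.05 (edgeR's quasi-likelihood test, Benjamini-Hochberg over all genes tested). Among all genes tested, 3.47% were upregulated and 4.38% were downregulated, and the counts of 3 and 1 among 45 members lay within 2 genes of these shares. With the block, 14.6% of all genes tested were upregulated and 15.3% were downregulated. The median log2 fold change of the 45 was -0.007, against 0.003 for all genes, with 22 members above 0 and 23 below. Of the 4 p53-induced repair genes, Polk alone was upregulated, and the other 3 had log2 fold changes of -0.20 to -0.04. The median of the 4 was -0.072 and that of the other 41 members was 0.005.

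The promoters of Polk, Ercc5 and Atr are shown because these members passed the test in edgeR and have an entry in the promoter table used here. Each window runs from 250 bases before to 50 bases after a RefSeq start site on mouse genome build GRCm38.p6, written in the direction of transcription. Capitals mark a match to the p53 half-site consensus, a palindromic stretch of 10 bases, with no mismatch in Polk and with 1 mismatch in Atr. In the inner Polk window only the exact match is in capitals, and 2 more matches with 1 mismatch are left in lower case.
Polk, inner start site, chr13:96519138-96519437, minus strand: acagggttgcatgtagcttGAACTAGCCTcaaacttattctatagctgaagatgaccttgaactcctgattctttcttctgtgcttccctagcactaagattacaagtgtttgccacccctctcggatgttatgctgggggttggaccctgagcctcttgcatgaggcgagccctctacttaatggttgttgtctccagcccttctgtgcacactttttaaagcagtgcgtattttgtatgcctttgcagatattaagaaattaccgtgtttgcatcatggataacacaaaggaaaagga
Polk, gene start, chr13:96542530-96542829, minus strand: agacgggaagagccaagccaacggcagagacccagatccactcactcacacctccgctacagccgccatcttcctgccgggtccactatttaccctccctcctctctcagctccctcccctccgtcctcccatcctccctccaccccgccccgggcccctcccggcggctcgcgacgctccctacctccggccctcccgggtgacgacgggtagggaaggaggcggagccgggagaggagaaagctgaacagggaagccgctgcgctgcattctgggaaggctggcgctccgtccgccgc
Ercc5, gene start, chr1:44147494-44147793, plus strand: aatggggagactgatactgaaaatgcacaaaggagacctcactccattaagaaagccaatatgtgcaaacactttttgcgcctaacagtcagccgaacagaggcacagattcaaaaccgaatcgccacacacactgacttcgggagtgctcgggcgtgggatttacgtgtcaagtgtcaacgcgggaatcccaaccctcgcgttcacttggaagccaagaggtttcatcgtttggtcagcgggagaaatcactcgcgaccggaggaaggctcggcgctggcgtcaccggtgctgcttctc
Atr, gene start, chr9:95857347-95857646, plus strand: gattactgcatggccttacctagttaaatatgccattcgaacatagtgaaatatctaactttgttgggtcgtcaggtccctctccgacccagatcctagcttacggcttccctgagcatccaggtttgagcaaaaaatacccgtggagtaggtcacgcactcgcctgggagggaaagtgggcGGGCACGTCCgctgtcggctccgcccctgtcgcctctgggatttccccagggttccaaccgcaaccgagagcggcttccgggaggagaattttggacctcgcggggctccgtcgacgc
The capitals in Polk begin 231 bases before the inner start site, which lies 23392 bases inside the gene and at which 0 of the 11 annotated Polk transcripts start, and those in Atr begin 68 bases before its start site. The windows at the gene start of Polk and Ercc5 hold no such match. Over 40 windows that were found for 35 of the 45 members, 2 held an exact half-site (5.0%, in Polk and Fanca), against 8.36% of 32851 RefSeq promoter windows. With up to 1 mismatch the shares were 62.5% and 70.0%. The E2F motif, spelled TTTCGCGC or TTTGGCGC and read on both strands, stood in 2 member windows (5.0%, in Topbp1 and Rad51c) and in 0.81% of all windows. The members without a window were Xpc, Ddb2, Rrm2b, Exo1, Ercc3, Fancd2, Nbn, Prkdc, Rad50 and Xrcc2, so Polk was the one p53-induced repair gene with a window. These matches are of letters only and no binding was measured.

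The counts on genes summed to between 28711166 and 34194413 per sample, and the members had mean counts of 262.7 (Xpa) to 22103 (Msh6). In ICF replicate 3, 20802 genes had a count, against 24340 to 24889 in the other samples. ICF replicate 3 stood apart: 89.0% of its counts above 0 were multiples of 4 (20.3 to 21.5% in the others), and it lay farthest out on the first principal component. Control replicate 3 lay at -9.8 on this component, against -29.7 and -27.3 for control replicates 1 and 2. The median chi-square per gene, a measure of how far 2 samples differ, was 0.966 between control replicates 1 and 2. It was 1.039 between ICF replicates 1 and 2 and 2.677 to 8.349 in all other pairs. By this measure, replicates 1 and 2 of a group were far closer to each other than to replicate 3, and the reason was not tested. The measure takes raw counts as they stand, so counts in multiples of 4 can raise it in pairs with ICF replicate 3. The summed level of the 45 members was 4064 to 4226 CPM in the control and 4086 to 4173 CPM with ICF, where CPM is a count divided by the TMM-adjusted library size. Of 11 proliferation markers 0 passed the test in edgeR or DESeq2, 2 were below an unadjusted p of 0.05, and their summed level was 4257 to 4597 CPM in the control and 4309 to 4447 CPM with ICF. With the replicate block in edgeR, Ccne1 and Ccne2 rose and Mki67 fell. The 8 pluripotency markers summed to 2859 to 3310 CPM in the control and 2777 to 3055 CPM with ICF. Klf4 and Dppa5a fell with the block in edgeR, and Dppa5a also fell in DESeq2 without the block. The 8 mesenchyme markers summed to 359.8 to 403.8 CPM in the control and 413.3 to 433.0 CPM with ICF, without overlap, and 2 of them, Col1a1 and Col3a1, were upregulated. Fibroblast and feeder markers were low, at 21.3 to 38.9 and 25.5 to 50.6 CPM in sum. The 5 neural markers summed to 111.8 to 121.0 and 106.2 to 115.2 CPM. The 5 endoderm markers summed to 353.0 to 370.5 and 347.4 to 387.3 CPM, with Sox17 downregulated (log2 fold change -0.34, edgeR adjusted p = 0.045). The 3 endothelium markers summed to 54.7 to 70.7 and 57.7 to 91.1 CPM, and the 4 hematopoietic markers to 16.3 to 17.4 and 15.4 to 22.2 CPM. Nearly all of the hematopoietic sum was Cd68, at 16.3 to 17.3 and 15.4 to 22.0 CPM, and 1 of these 4 genes was tested. Ptprc was at 0.276 CPM or less in every sample, and the hemoglobin genes Hba-a1 and Hbb-bs were at 0.0319 CPM or less and at 0. Among the other lists, Col1a1, Col3a1, Twist1, Col1a2, Nes, Gata6 and Cdh5 rose and Tubb3 and Sox17 fell with the block in edgeR. Of these, Col1a1, Col3a1, Nes, Cdh5 and Sox17 also passed in DESeq2 without the block. Over all genes tested, 14.6% rose and 15.3% fell with the block in edgeR. The part of these shifts in the members' changes was not tested, and fewer cells of a type and less RNA per cell cannot be told apart in bulk samples.

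Polk, a DNA polymerase that copies past bulky lesions, had the largest change of the 45 members. The gene lies at chr13:96480690-96542579 on the minus strand of GRCm38. Its levels were 22.6, 23.7 and 29.6 CPM in control replicates 1 to 3 and 37.3, 36.4 and 56.1 CPM with ICF. Every ICF sample was above every control sample, and replicate 3 was the highest in each group. The rise was 1.71-fold, a log2 fold change of 0.77 ± 0.23 (SE, the standard error from the replicate spread, edgeR adjusted p = 0.033). Without ICF replicate 3 the log2 fold change was 0.55 (adjusted p = 0.021 from edgeR), and the call was lost without control replicate 1 (adjusted p = 0.14), control replicate 2 (0.14) or ICF replicate 1 (0.053). The log2 fold change was 0.70, 0.73 and 0.87 in the fits that lost the call.

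The other 3 p53-induced repair genes did not pass the test. Xpc, which finds distorted DNA to start nucleotide excision repair, was at 35.2, 31.8 and 31.7 CPM in the control and 28.8, 28.8 and 28.0 CPM with ICF. All ICF samples of Xpc were below all control samples, with a log2 fold change of -0.20 ± 0.05 (SE, edgeR adjusted p = 0.13). With the replicate number as a block, the adjusted p of Xpc was 0.025 in edgeR and 0.11 in DESeq2. Ddb2, which binds ultraviolet lesions in chromatin, was at 16.3, 13.8 and 15.0 CPM in the control and 15.5, 14.9 and 13.5 CPM with ICF. The groups overlapped, and the log2 fold change of -0.04 ± 0.09 (SE, edgeR adjusted p = 0.85) changed sign without control replicate 1 (0.023) or ICF replicate 3 (0.022). An opposite-strand gene, Acp2, overlaps 23.8% of the exon bases of Ddb2, and since the strand setting of the counting is not given, its count is uncertain. Rrm2b, the p53-controlled small subunit of ribonucleotide reductase that supplies deoxynucleotides for repair, was at 10.3, 11.8 and 11.0 CPM in the control and 10.9, 9.90 and 9.94 CPM with ICF. These groups also overlapped, with a log2 fold change of -0.11 ± 0.07 (SE, edgeR adjusted p = 0.56). Thus Polk and Xpc, both in this group, had log2 fold changes of opposite sign.

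**Figure D1:**
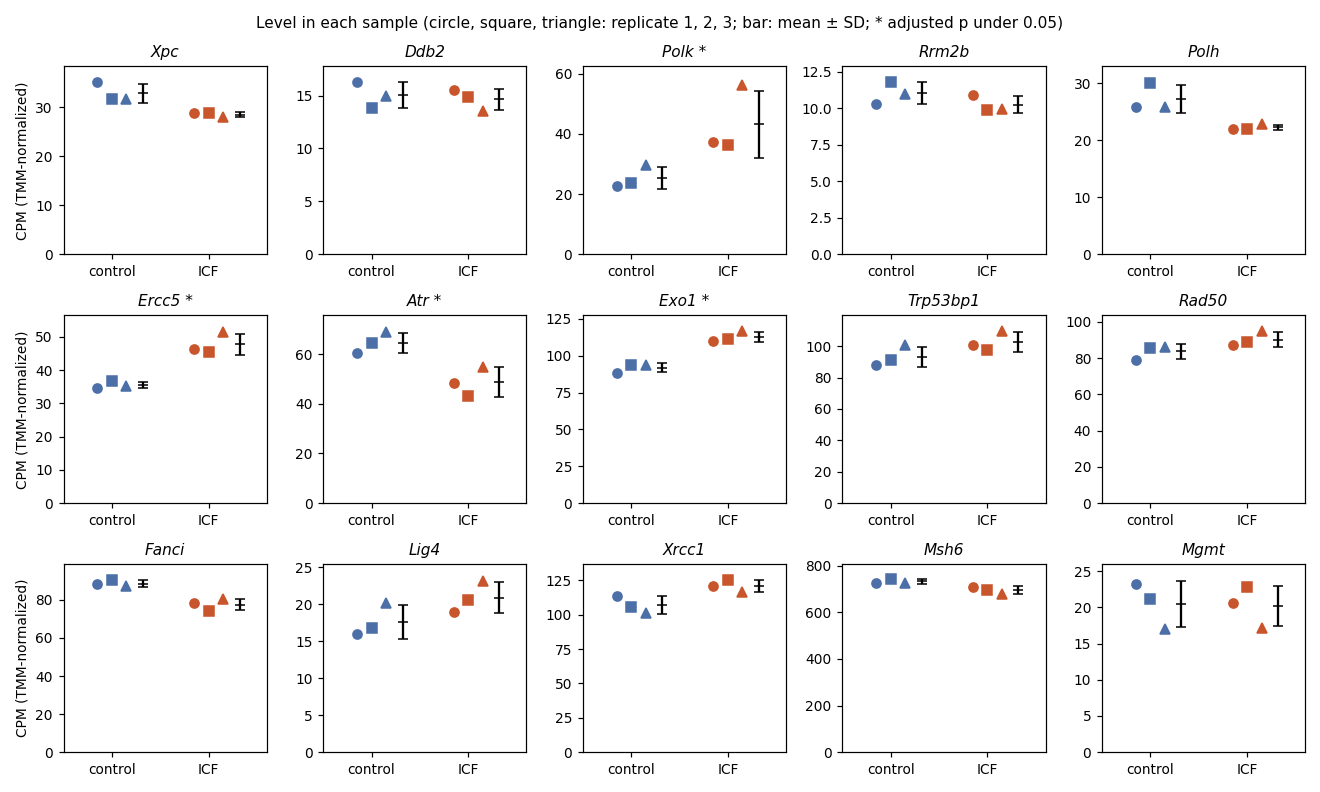
Level of 15 members in each sample, in TMM-normalized CPM (vertical axes, from 0), for control and ICF, where a circle, square and triangle stand for replicates 1, 2 and 3, the bar is the mean ± SD (n = 3) and an asterisk marks an adjusted p under 0.05 in edgeR. Polk, Ercc5 and Exo1 are higher in all 3 ICF samples, Atr is lower in all 3, and the points of Ddb2, Rrm2b and Mgmt overlap between groups.

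Polh, the other translesion polymerase among the members, copies accurately past ultraviolet-induced dimers. Its levels were 25.8, 30.1 and 25.9 CPM in the control and 22.0, 22.0 and 22.8 CPM with ICF. All ICF samples were below all control samples, opposite in direction to Polk. The log2 fold change was -0.29 ± 0.07 (SE, edgeR adjusted p = 0.072), with an adjusted p of 0.0032 with the replicate block and 0.041 with DESeq2. Within a sample, the ratio of Polk to Polh CPM was 0.88, 0.79 and 1.14 without load and 1.69, 1.66 and 2.46 under ICF, a log2 difference of 1.04 ± 0.24 (SE, exact two-sided permutation p = 0.1). This p is the smallest that 3 against 3 samples allow, and the ratios given here were chosen after the values were seen.

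Among the nucleotide excision repair genes, the nuclease gene Ercc5 was upregulated. Ercc5 encodes the endonuclease that makes one of the incisions around the lesion, and it lies at chr1:44147744-44181260 on the plus strand of GRCm38. Its levels were 34.7, 36.6 and 35.3 CPM in the control and 46.4, 45.4 and 51.4 CPM with ICF. The groups did not overlap, and the control samples were within 2 CPM of each other. The rise was 1.34-fold, a log2 fold change of 0.42 ± 0.06 (SE, edgeR adjusted p = 0.011). The call was lost without control replicate 1 (adjusted p = 0.068) or control replicate 2 (0.06), with log2 fold changes of 0.41 and 0.45.

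The partner nuclease on the other side of the lesion is formed by Ercc1 and Ercc4. Ercc4 had a log2 fold change of 0.09 ± 0.11 (SE), and Ercc1 had one of 0.23 ± 0.09 (SE), whose adjusted p was 0.17 without and 0.02 with the replicate block in edgeR. With the block in DESeq2, Ercc1 did not pass. The ratio of Ercc5 to Ercc4 CPM was 1.10, 1.17 and 0.91 without load and 1.29, 1.32 and 1.35 under ICF, a log2 difference of 0.32 ± 0.11 (SE, exact permutation p = 0.1). Xpa, which verifies the lesion, had a log2 fold change of 0.18 ± 0.15 (SE) with overlapping groups. The helicase genes Ercc2 and Ercc3, part of the transcription factor that opens the DNA, had log2 fold changes of -0.08 and 0.04, and opposite-strand genes overlap 42.4% of the exon bases of Ercc2. In all, 1 of the 8 genes of this pathway was upregulated and 0 were downregulated in edgeR, and 3 of the 8 had an unadjusted p under 0.05.

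The checkpoint kinases Atm and Atr had log2 fold changes of opposite sign. Atr, the kinase that responds to stalled replication and single-stranded DNA, was the one downregulated member. Atr lies at chr9:95857597-95951781 on the plus strand of GRCm38, and was at 60.6, 64.3 and 68.7 CPM in the control and 48.3, 43.0 and 54.8 CPM with ICF. Every ICF sample was below every control sample, and the fall was seen in each same-numbered pair. The log2 fold change was -0.41 ± 0.11 (SE, edgeR adjusted p = 0.038). The call of Atr was lost without control replicate 1 (adjusted p = 0.09), 2 (0.14) or 3 (0.064) and without ICF replicate 1 (0.12) or 2 (0.098), and held without ICF replicate 3 (0.0096), with log2 fold changes of -0.49 to -0.32.

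Atm, the kinase that responds to double-strand breaks, was at 31.8, 32.6 and 40.8 CPM in the control and 41.7, 38.8 and 45.2 CPM with ICF. Its groups overlapped through control replicate 3, and its log2 fold change was 0.26 ± 0.13 (SE), with an adjusted p of 0.18 without and 0.0027 with the replicate block in edgeR. The ratio of Atm to Atr CPM was 0.52, 0.51 and 0.59 without load and 0.86, 0.90 and 0.82 under ICF, a log2 difference of 0.67 ± 0.08 (SE, exact permutation p = 0.1). This ratio was higher in every ICF sample than in every control sample. The effector kinases had log2 fold changes of 0.13 ± 0.06 (SE) for Chek1, which acts below Atr, and -0.01 ± 0.02 (SE) for Chek2, which acts below Atm.

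**Figure D2:**
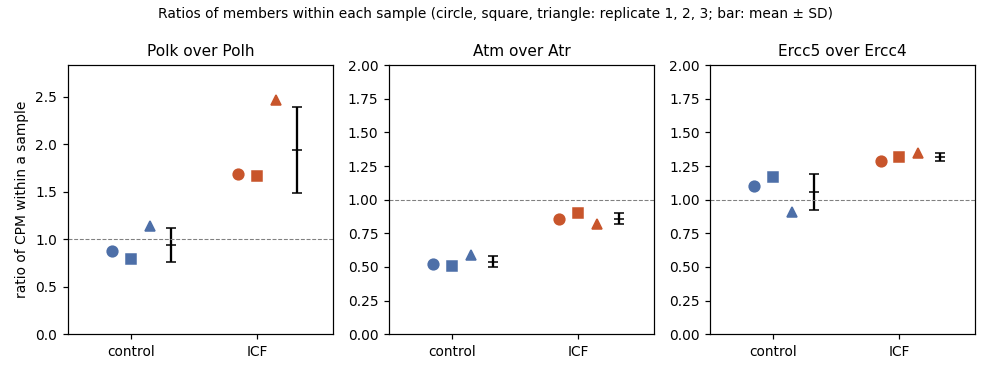
Ratio of CPM between pairs of members within each sample (vertical axes, from 0), for control and ICF, with circles, squares and triangles for replicates 1, 2 and 3 and bars for the mean ± SD (n = 3). Polk over Polh was 0.79 to 1.14 in the control and 1.66 to 2.46 with ICF, Atm over Atr was 0.51 to 0.59 and 0.82 to 0.90, and Ercc5 over Ercc4 was 0.91 to 1.17 and 1.29 to 1.35.

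The mediator proteins that gather at breaks and the MRN complex that first binds broken ends showed small differences. Trp53bp1, which steers breaks toward end joining, was at 88.0, 91.4 and 100.4 CPM in the control and 100.8, 97.6 and 109.6 CPM with ICF. The groups overlapped, and the log2 fold change of 0.14 ± 0.08 (SE) had an adjusted p of 0.28 without and 0.042 with the replicate block in edgeR. With the block it was 0.11 in DESeq2 and, without replicate 3 of both groups, 0.1 in edgeR. An opposite-strand gene, Tubgcp4, overlaps 15.0% of its exon bases. Mdc1, a scaffold at modified chromatin around breaks, had a log2 fold change of 0.06, and Topbp1, an activator of Atr, one of -0.01. Rad50, the ATPase of the MRN complex, was at 79.1, 85.7 and 86.2 CPM in the control and 87.0, 88.6 and 95.1 CPM with ICF. All ICF samples of Rad50 were above all control samples, yet the gap was under 1 CPM and the log2 fold change was 0.11 ± 0.06 (SE, edgeR adjusted p = 0.33). The nuclease Mre11a and the adaptor Nbn of the same complex had log2 fold changes of -0.08 and 0.02.

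Of the 9 homologous recombination genes, Exo1 was upregulated. Exo1 encodes an exonuclease that resects broken ends and also acts in mismatch repair, and it lies at chr1:175880581-175913489 on the plus strand of GRCm38. Its levels were 88.3, 93.8 and 93.8 CPM in the control and 109.8, 111.5 and 116.5 CPM with ICF. The groups were apart in every pair, with a 1.22-fold rise (0.29 ± 0.04 on the log2 scale, SE, edgeR adjusted p = 0.021). The call of Exo1 was lost without control replicate 1 (adjusted p = 0.11) or 2 (0.098) and without ICF replicate 1 (0.07) or 2 (0.061), with log2 fold changes of 0.26 to 0.31.

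The other recombination genes parted by sign. Brca1, which promotes resection and recruits the recombinase, had a log2 fold change of 0.27 ± 0.10 (SE), with an adjusted p of 0.086 in edgeR, 0.00023 with the replicate block and 0.044 with DESeq2. Xrcc2, a relative of the recombinase, and Rad54l, a motor protein that works with it, had log2 fold changes of 0.22 and 0.19, and passed in edgeR with the replicate block (adjusted p of 0.018 and 0.0094) but not without it (0.11 and 0.14). With the block in DESeq2, Rad54l passed and Xrcc2 did not. For Rad54l the opposite-strand gene Lrrc41 overlaps 15.4% of its exon bases. In all 3 of these genes every ICF sample was above every control sample. Bard1 (-0.07), the partner of Brca1, Palb2 (-0.16), the bridge between Brca1 and Brca2, Brca2 (-0.13), which loads the recombinase, Blm (-0.13), a helicase that dissolves joined molecules, and Rad51c (-0.02), another recombinase relative, had log2 fold changes below 0, and 0 of these 5 passed with or without the replicate block in edgeR. Their adjusted p was 0.2 to 0.85 without the block, and Palb2 was the one with an ICF group wholly below the control.

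The Fanconi anemia genes act on crosslinks between strands. Fanci, which pairs with Fancd2 at the lesion, was at 88.2, 90.6 and 87.1 CPM in the control and 78.3, 74.2 and 80.3 CPM with ICF. All ICF samples of Fanci were below all control samples, and the log2 fold change was -0.19 ± 0.04 (SE), with an adjusted p of 0.081 without and 0.0065 with the replicate block in edgeR. An opposite-strand gene, Polg, overlaps 16.0% of its exon bases. Fancd2, the partner of Fanci, had a log2 fold change of -0.09, and the core complex genes Fanca and Fancc had 0.03 and 0.09, all 3 with overlapping groups.

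Among the end joining genes, Lig4, the ligase of this pathway, was at 15.9, 16.7 and 20.2 CPM in the control and 18.9, 20.6 and 23.1 CPM with ICF. The groups overlapped, although Lig4 was higher with ICF in 3 of 3 same-numbered pairs. Its log2 fold change of 0.24 ± 0.14 (SE) had an adjusted p of 0.24 without and 0.017 with the replicate block in edgeR, and 0.13 with the block in DESeq2. The end-binding Ku subunits Xrcc5 and Xrcc6 and the kinase Prkdc had log2 fold changes of -0.08, -0.06 and -0.10, and 0 of these 3 passed in edgeR with or without the block or in DESeq2, or had an unadjusted p under 0.05.

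Of the 7 base excision, mismatch and direct repair genes 0 passed in edgeR or DESeq2 without the block, and 1, Xrcc1, had an unadjusted p under 0.05. Xrcc1, the scaffold of single-strand break repair, was at 113.9, 105.5 and 100.9 CPM in the control and 120.7, 125.3 and 116.3 CPM with ICF. The groups did not overlap, and the log2 fold change was 0.18 ± 0.06 (SE). Its adjusted p was 0.13 without and 0.009 with the replicate block in edgeR, and 0.029 with the block in DESeq2. Without replicate 3 of both groups the adjusted p of Xrcc1 in edgeR was 0.024, and 0.053 with the block added. Parp1, the break sensor that recruits Xrcc1, was at 604.0 ± 51.8 CPM (SD, n = 3) in the control and 556.3 ± 57.4 CPM (SD, n = 3) with ICF, a difference within the spread of the replicates that passed in 1 alternative, DESeq2 with the replicate block. The glycosylases Ung, which removes uracil, and Ogg1, which removes oxidized guanine, had log2 fold changes of 0.10 and 0.00.

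Msh6, which recognises mismatches, was at 726.7, 742.5 and 726.6 CPM in the control and 709.8, 695.7 and 676.6 CPM with ICF. Its ICF samples were all lower, by a log2 fold change of -0.08 ± 0.02 (SE, edgeR adjusted p = 0.41). Pms2, its partner downstream, had a log2 fold change of -0.03 ± 0.01 (SE). Mgmt, which lifts alkyl groups directly from guanine, was at 23.3, 21.2 and 17.0 CPM in the control and 20.6, 22.8 and 17.2 CPM with ICF. The groups overlapped, replicate 3 was the lowest in each, and the log2 fold change of -0.02 ± 0.18 (SE, edgeR adjusted p = 0.95) changed sign without control replicate 1 (0.083), control replicate 2 (0.004) or ICF replicate 3 (0.089).

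Over the 45 members together, the sizes of change were smaller than over all genes tested, in a comparison not matched for level. The members had mean counts of 262.7 or more, while the genes tested included some at far fewer counts, such as Postn at 10.5. The median size of the log2 fold change was 0.106, against 0.166 over all genes tested, and 48.9% of the members had a log2 fold change within 0.1 of 0, against 32.9% of all genes. An unadjusted p under 0.05 was reached by 13 members (28.9%) and by 25.6% of all genes. All ICF samples lay above all control samples for 8 members, against 15.6% of all genes, and below for 8 members, against 15.7% of all genes. A count of 8 in 45 is 17.8%, close to these shares in both directions.

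With the replicate number as a block, 11 members were upregulated and 4 were downregulated in edgeR, against 14.6% and 15.3% of all genes tested. The 11 were Polk, Ercc5, Exo1, Ercc1, Atm, Trp53bp1, Brca1, Rad54l, Xrcc2, Lig4 and Xrcc1, and the 4 were Atr, Xpc, Polh and Fanci. Of the p53-induced repair genes, 1 rose (Polk) and 1 fell (Xpc) under the block, and of the other 41 members 10 rose and 3 fell. The count of upregulated members without the block was 0 without control replicate 1 or control replicate 2, and 1 (Ercc5) without ICF replicate 1. Over all genes, 109 of 17143, 85 of 17015 and 181 of 17049 were upregulated in these fits, against 580 of 16729 with all samples. The count of downregulated members was 1 without ICF replicate 3 and 0 without any other single sample. Over all genes, 771 were downregulated without ICF replicate 3 and 215 to 928 without any other single sample, against 733 with all samples.

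**Figure D3:**
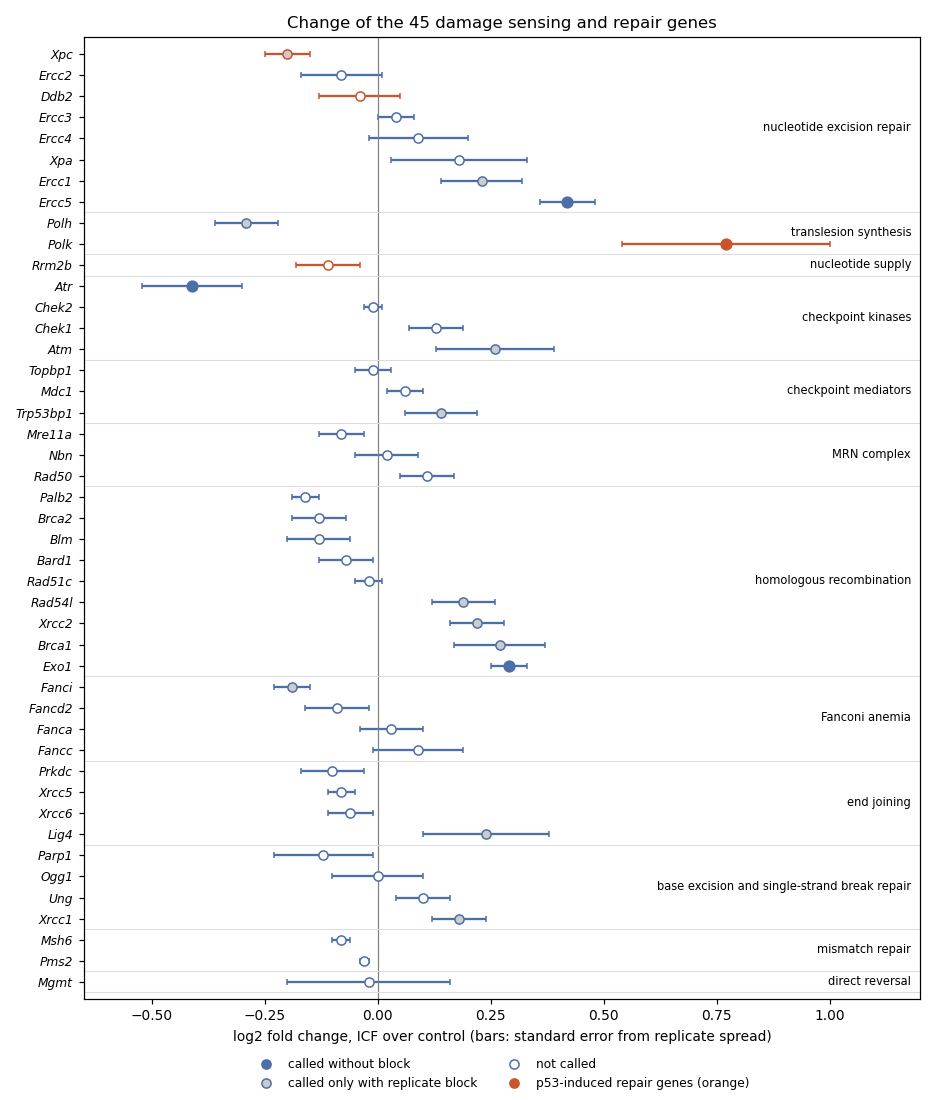
Log2 fold change of each of the 45 members, ICF over control (horizontal axis), grouped by role, with bars for the standard error from replicate spread (n = 3 per group). Filled points passed an adjusted p of 0.05 in edgeR (Polk, Ercc5, Exo1 and Atr), grey points passed only with the replicate block, open points passed in neither, and orange marks the 4 p53-induced repair genes.

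The levels of the members, on a scale per length, spanned a wide range in the control. In RPKM, the CPM divided by the exon length in kilobases, they ran from 1.21 for Rrm2b, at the 28.8th percentile of the genes tested, to 168.4 for Msh6, at the 98.6th. Parp1 followed at 114.1 RPKM and the Ku subunit Xrcc5 at 77.2 RPKM. Polk (4.56 RPKM) and Polh (4.58 RPKM) were nearly level in the control, while Polk was at 7.79 and Polh at 3.74 RPKM with ICF. Atm was at 3.39 RPKM in the control and 4.05 RPKM with ICF, and Atr fell from 2.73 to 2.06 RPKM. On this scale Atm was above Atr in both groups, but their order rests on the annotation, in which the exons of all Atr transcripts together span 23629 bases and those of Atm 10338 bases.

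A further list of 116 repair genes outside the 45 gave 6 upregulated and 5 downregulated genes in edgeR, 11 and 5 in DESeq2, and 25 and 15 in edgeR with the replicate block. The shares of all genes tested were 3.47% up and 4.38% down in edgeR, and 14.6% and 15.3% with the block. In DESeq2, 877 of these 16729 genes were upregulated and 1071 were downregulated. Their median log2 fold change was 0.048, with 69 of 116 above 0. Among genes past the threshold, the rises with the largest log2 fold change were those of Rev1 (0.39), a scaffold polymerase of translesion synthesis, Rad9a (0.36), part of the clamp that activates Atr, Slx4 (0.34) and Mus81 (0.33), a scaffold and a nuclease that cut joined molecules, and Apex2 (0.28), an endonuclease of base excision repair, with adjusted p of 0.012 to 0.049 from edgeR. Rev1 was at 72.7 ± 6.30 CPM (SD, n = 3) in the control and 95.1 ± 5.30 CPM (SD, n = 3) with ICF.

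The largest falls past the threshold in this list were those of H2afx (-0.61), the histone variant that marks breaks, Neil2 (-0.59), a glycosylase, Fancl (-0.26), the ubiquitin ligase of the Fanconi pathway, and Cul4a (-0.25) and Ddb1 (-0.22), which form a ubiquitin ligase with Ddb2, with adjusted p of 0.0096 to 0.049 from edgeR. H2afx was at 226.3 ± 33.6 CPM (SD, n = 3) in the control and 148.5 ± 3.91 CPM (SD, n = 3) with ICF. Ddb1 was at 1394 ± 36.5 CPM (SD, n = 3) and 1198 ± 18.0 CPM (SD, n = 3). With any 1 sample left out, these 10 genes kept their direction and passed in between 0 (Apex2 and Fancl) and 5 (H2afx) of the 6. Ddb1 and Cul4a were thus lower with ICF while Ddb2 itself was at 15.0 ± 1.23 and 14.6 ± 1.00 CPM (SD, n = 3 each).

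Within the further list, 3 of 20 homologous recombination genes were upregulated and 0 downregulated in edgeR, and 5 and 0 in DESeq2, with a median log2 fold change of 0.146. This pathway was singled out after its values were seen. Of all genes tested, 3.47% were upregulated in edgeR, and 877 of 16729 in DESeq2. All ICF samples lay above all control samples in 10 of these 20, against 15.6% of all genes. With the replicate block 9 of the 20 were upregulated, against 14.6% of all genes, and 0 downregulated. By comparison 4 of the 9 recombination members were upregulated and 0 downregulated with the block. Without the block 1 of the 9 was upregulated, and their median log2 fold change was -0.024, with 5 below 0. Of the 6 end joining genes in the further list 0 passed under either design in edgeR or in DESeq2, and 0 had an unadjusted p under 0.05.

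**Figure D4:**
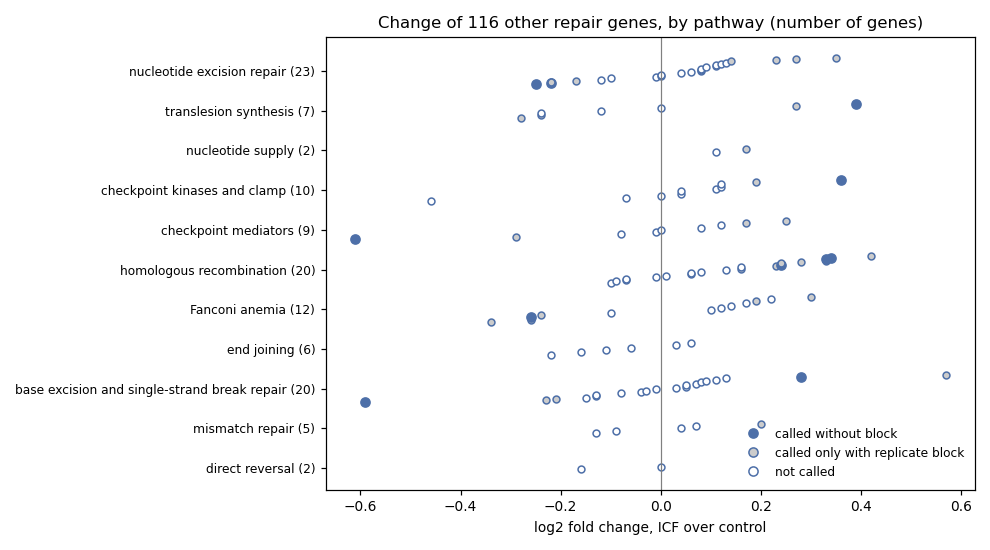
Log2 fold change of 116 further repair genes, ICF over control (horizontal axis), 1 point per gene and 1 row per pathway with its number of genes. Filled points passed an adjusted p of 0.05 in edgeR (6 above 0 and 5 below), grey points passed only with the replicate block and open points passed in neither, with the 20 homologous recombination genes mostly above 0.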

How the data were processed

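The authors isolated total RNA from 3 ICF and 3 control samples, prepared strand-specific mRNA libraries and sequenced single reads of 75 cycles. Per the submitters' processing notes, bcl2fastq 2.19, FastQC, Trimmomatic, HISAT2 and HTSeq were used. The values that the authors deposited are raw read counts by gene identifier, in whole numbers and not normalized, with 1 file per sample. The strand setting of the counting is not given in the sources used here, and the notes name a human and a mouse build without their roles. Rows of the counts that name no gene were left out, and they included reads aligned to several places (29.48 to 31.29% of all reads per sample) and reads on no gene (4.09 to 6.24%). Reads aligned to several places are lost to genes with near-identical copies.

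Gene names, coordinates and exon lengths came from GENCODE M21 on GRCm38, which held 50376 of the 50686 identifiers. Counts were tested with edgeR 4.0.16 in R 4.3.3 (TMM, filterByExpr by group, glmQLFit and glmQLFTest) with Benjamini-Hochberg adjustment over all 16729 genes tested and a threshold of 0.05. Standard errors were taken from the replicate SDs of log2 CPM. At 28711166 to 34194413 counts on genes per sample, the spread between replicates limits precision for most members. The read depth of ICF replicate 3 is uncertain, because 89.0% of its counts above 0 were multiples of 4. The procedure was tested on simulated data.

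Same-numbered samples deviated together from their group means (r across genes of 0.15, 0.20 and 0.38). Differently numbered samples gave r of -0.34 to 0.26, with 0.26 for control 1 and ICF 2 and 0.17 for control 2 and ICF 1, so the pairing of replicates 1 and 2 is not distinct from the crossed one. The replicate number, taken from the donor number in the labels, was still used as a block in an alternative. The study's own design held the group alone, and so did the fit reported first.

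The members and lists were chosen with earlier results of these data known. Values in each sample were given for the 4 p53-induced repair genes, Polh, members past the threshold and the member with the largest change in each role, and for Atm, which was added after its values were seen. From the further list, the 5 largest rises and 5 largest falls past the threshold were named. Overlap with other genes was taken from exons on either strand. Promoters came from the RefSeq table on GRCm38.p6 (windows for 35 members). Alternatives were DESeq2 1.42.0, RLE size factors, filters of 1 count in any sample and 10 counts in every sample, the replicate block in edgeR and in DESeq2, the counts of ICF replicate 3 divided by 4, and each sample left out in turn. Leaving out replicate 3 of both groups was added after seeing the data.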

Additional observations from a re-analysis of the deposited data

How the results depend on the processing

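The 4 members that passed the test kept their direction under the 13 planned and 2 added alternatives. The count of upregulated members, 3 as reported, was 11 with the replicate block, 7 with DESeq2 and the block, 11 without replicate 3 of both groups, 8 with the block without replicate 3 of both groups, and 0 to 4 when 1 sample was left out. The count of downregulated members, 1 as reported, was 2 with DESeq2, 4 with the block, 4 with DESeq2 and the block, 5 without replicate 3 of both groups, 4 with the block without replicate 3 of both groups, and 0 to 1 when 1 sample was left out. Among the members with values in each sample, the block in edgeR changed the calls of Xpc, Polh, Atm, Trp53bp1, Fanci, Lig4 and Xrcc1 and no other call. The median log2 fold change of the 41 members outside the p53-induced group was -0.010 to 0.050 when 1 sample was left out. The log2 fold change of Ddb2 was 0.015 without replicate 3 of both groups, with and without the block, and -0.096 to 0.023 when 1 sample was left out. That of Mgmt was 0.006 with the counts of ICF replicate 3 divided by 4 and -0.138 to 0.089 when 1 sample was left out. The cause of these shifts was not tested. Over all genes, 85 to 724 were upregulated and 215 to 928 downregulated when 1 sample was left out. Without replicate 3 of both groups, 2466 of 16893 genes were upregulated and 2627 downregulated, and 2162 and 2359 with the block added. With DESeq2 the counts were 877 and 1071 of 29735 genes, and with DESeq2 and the block 1354 and 1666 of 29738. With the block in edgeR the shares were 14.6% and 15.3%. The fit reported first gave 580 and 733. The number of calls over all genes thus rose with the block, with DESeq2 and without replicate 3 of both groups. It also rose without control replicate 3 (724 and 928) or ICF replicate 3 (637 and 771). It fell without control replicate 1 (109 and 251), control replicate 2 (85 and 215), ICF replicate 1 (181 and 290) or ICF replicate 2 (232 and 349). With 3 samples per group and members at mean counts of 262.7 to 22103, a p that missed the threshold does not show equal levels.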
